A study of Mus musculus with 16 samples.

Results

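The 10 genes described here encode the insulin-like growth factor (IGF) system as measured in the mouse uterus: the ligands Igf1 and Igf2, the receptor Igf1r, the receptor adaptors Irs1 and Irs2, and the binding proteins Igfbp2, Igfbp3, Igfbp4, Igfbp5 and Igfbp6. They were matched to the arrays by gene name. All 10 genes, read by 17 probes, were among the 25860 genes that passed the filter on dim probes. The uteri came from Arg260 mice given 8 µg/kg of 17beta-estradiol (Arg260 E2), Arg260 mice given castor oil with 0 µg/kg (Arg260 PLB), and wild-type mice given the same treatments (WT E2 and WT PLB). Each group had 4 samples with 1 array each. Every mouse, controls included, had lost its ovaries at 4 weeks of age and spent 2 to 3 weeks without them, received its injection under the skin, and was sampled 6 h later. Arg260 mice carry the Arg260 form of estrogen receptor alpha, the main uterine receptor for estradiol (E2). How that arginine was altered, and in which cells the altered receptor was made, is not given in the sources used here. It is also not given whether the samples of a group were separate animals. Each sample title begins with a number of its own, but what that number identifies is not given. The p-values therefore measure the spread between samples, which may be technical.

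IGF1 and IGF2 are secreted growth factors that bind the tyrosine kinase receptor IGF1R. The activated receptor phosphorylates the adaptors IRS1 and IRS2, which pass the signal to phosphoinositide 3-kinase and the kinase AKT. Binding proteins hold IGFs in body fluids and at the cell surface, where they limit or prolong ligand action, and proteases release the ligand again. In the rodent uterus Igf1 is a classical estrogen target, made largely by stromal cells, and it takes part in the growth response of the epithelium to estrogen.

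RNA of uterine identity was present in all samples: Esr1, Pgr, Hoxa10 and Hoxa11, which mark reproductive tract tissue, were well above background on all 16 arrays. Pgr, the progesterone receptor gene, averaged 4.60 ± 0.19 in Arg260 E2 and 2.22 ± 0.49 in Arg260 PLB, and 4.34 ± 0.10 in WT E2 and 2.21 ± 0.24 in WT PLB (SD, n = 4 each). Signal is given throughout as log2 of the processed signal relative to each array's 75th percentile, so a difference of 1 is a doubling. Levels of different genes are not set against each other, because each probe binds with its own efficiency. On the second principal component, with 5.12% of the variance, Arg260 PLB replicate 3 and WT PLB replicate 2 lay far from the other arrays. Of the 10 IGF genes, 8 passed the test for E2 (an adjusted p under 0.05 over all genes) in Arg260 and 7 in WT, against 64.3% and 63.5% of all genes. With both arrays left out, 7 passed in Arg260, where Igfbp5 was lost (limma adjusted p = 0.0694), and 7 in WT. Of all genes, 16259 then passed in Arg260 and 16093 in WT, against 16628 and 16434 with all arrays.

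Promoter sequence is shown for Igf1 and Irs2, the ligand and the adaptor gene of the 10 with the larger change, and for Igf1r, their only receptor gene. The stretch before each start can thus be read beside the measurements. The RefSeq table of build GRCm38.p6 matched all 10 genes with 14 transcription starts. The 250 bases before the start follow, 5′ to 3′, for the first start listed, at chr10:87860861-87861110 on the plus strand for Igf1, chr7:67952007-67952256 on the plus strand for Igf1r and chr8:11008930-11009179 on the minus strand for Irs2. Capitals mark matches to the motifs searched.
Igf1: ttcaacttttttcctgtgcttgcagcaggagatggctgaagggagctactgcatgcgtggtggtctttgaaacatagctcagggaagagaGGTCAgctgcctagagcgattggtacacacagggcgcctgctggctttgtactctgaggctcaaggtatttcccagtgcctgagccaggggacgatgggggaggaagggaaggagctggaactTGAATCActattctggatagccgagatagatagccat
Igf1r: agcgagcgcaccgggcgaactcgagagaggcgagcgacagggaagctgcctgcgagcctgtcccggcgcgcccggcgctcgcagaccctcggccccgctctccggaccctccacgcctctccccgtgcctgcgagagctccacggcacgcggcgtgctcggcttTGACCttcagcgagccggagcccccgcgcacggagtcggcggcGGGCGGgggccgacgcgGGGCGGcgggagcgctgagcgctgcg
Irs2: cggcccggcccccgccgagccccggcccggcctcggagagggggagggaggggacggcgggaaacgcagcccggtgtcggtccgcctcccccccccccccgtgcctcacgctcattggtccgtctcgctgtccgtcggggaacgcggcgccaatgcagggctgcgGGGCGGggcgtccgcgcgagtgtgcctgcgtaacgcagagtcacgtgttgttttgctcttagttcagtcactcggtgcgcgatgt
The Igf1 stretch held 1 estrogen response half-site (GGTCA), 160 to 156 bases before the start. It also held 1 match to the loose AP-1 pattern searched (TGANTCA, any base at N), read as TGAATCA, 37 to 31 bases before the start. The Igf1r stretch held 1 half-site and 2 GC boxes (GGGCGG), and the Irs2 stretch held 1 GC box. The full estrogen response element (GGTCA and TGACC with any 3 bases between them), which contains the half-site on each strand, was in none of the 14 stretches of the IGF genes and in 0.0639% of all 32851 promoters of the table. Among all promoters, 35.2% held the half-site, 6.75% the loose AP-1 pattern and 32.7% the GC box, each searched on both strands. Such matches describe letters and show no binding, and binding was not measured here.

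The first question was what E2 did to the ligands, the receptor and the adaptors. After 6 h Igf1 had risen more than 7-fold in both genotypes, while Igf1r had fallen 2.68-fold in Arg260 and 2.65-fold in WT and Irs2 had fallen 14.0-fold in Arg260 and 16.8-fold in WT. Igf2 lay close to background and its call in Arg260 was lost under many alternatives. Irs1 fell in WT and did not pass the test in Arg260, where its call depended on how the arrays were scaled.

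The Igf1 probe that stood for the gene lay at chr10:87399581-87399640 (plus strand, build mm9, as are all probe positions here; exon and UTR annotation of that build was not used). It measured 5.14, 4.52, 4.20 and 4.49 in Arg260 E2, against 1.38, 1.53, 1.17 and 2.60 in Arg260 PLB. In WT E2 it measured 4.37, 4.35, 4.63 and 3.90, against 1.06, 1.42, 1.24 and 1.93 in WT PLB. Every E2 array lay above every PLB array, and the highest PLB value belonged to Arg260 PLB replicate 4. Igf1 was 7.56-fold higher with E2 in Arg260 (log2 2.92, SE 0.30, limma adjusted p = 6.43e-07) and 7.46-fold higher in WT (log2 2.90, SE 0.30, limma adjusted p = 7.03e-07). Within slides the log2 change was 3.38 and 2.46 in Arg260 and 3.12 and 2.68 in WT, so the gene rose on each slide. In whole uteri, fewer cells of a type and less RNA per cell cannot be told apart, here and in all results below.

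The other 4 Igf1 probes rose as well. Across all 5 probes the log2 change ranged between 2.35 and 2.97 in Arg260 and between 2.25 and 3.07 in WT. The probe for the transcript NM_184052, at chr10:87378456-87378515, rose by 2.81 in Arg260 and by 2.74 in WT (SE 0.14 each). The probes that read the transcript NM_010512 gave both the smallest and the largest changes. The probe used above lay inside this range.

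**Figure D1:**
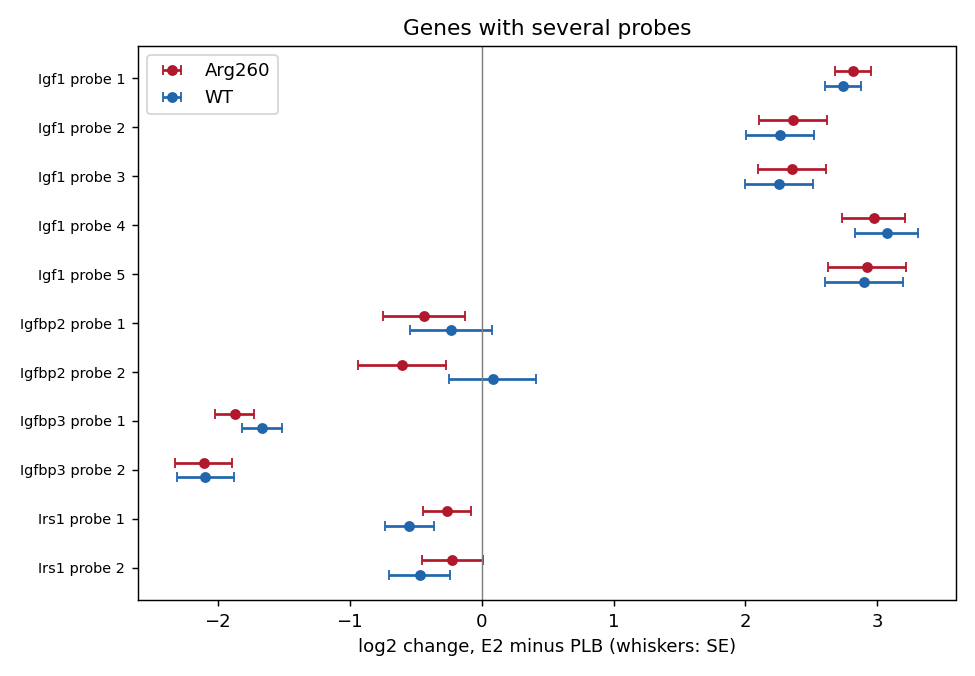
Log2 change with E2 (E2 minus PLB, x axis) of each probe of the IGF genes that have several probes, in Arg260 (red, upper point) and WT (blue, lower point); whiskers are standard errors, with 4 arrays per group. All 5 Igf1 probes lie between 2.25 and 3.07, both Igfbp3 probes lie at -1.66 or lower, and the probes of Igfbp2 and Irs1 lie nearer to 0.

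Igf2, the fetal growth ligand, was dim. Its probe (chr7:149839661-149839720, minus strand) measured -4.41, -4.86, -4.45 and -5.25 in Arg260 E2, against -4.18, -4.14, -4.55 and -3.79 in Arg260 PLB. The WT E2 arrays gave -4.61, -4.05, -4.45 and -4.62, against -4.76, -3.78, -4.21 and -4.33 in WT PLB. The E2 and PLB ranges overlapped in both genotypes, and the spot was not well above background on Arg260 E2 replicate 4. The log2 change was -0.58 in Arg260 (SE 0.23, limma adjusted p = 0.0412) and -0.16 in WT (SE 0.23, limma adjusted p = 0.574). The Arg260 call was lost in 15 of 31 alternatives, with adjusted p of up to 0.310. Those include leaving out any of WT PLB replicate 3, Arg260 PLB replicates 1, 2 or 4, and Arg260 E2 replicates 2 or 4, and each slide alone (log2 -0.48 on slide 1 and -0.68 on slide 2).

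Igf1r, the receptor through which both ligands signal, fell. Its probe (chr7:75378461-75378520, plus strand) measured 2.40, 3.06, 3.01 and 2.76 in Arg260 E2, against 4.39, 4.43, 3.90 and 4.20 in Arg260 PLB. Values in WT E2 were 3.22, 3.20, 2.71 and 3.35, against 4.56, 4.49, 4.47 and 4.57 in WT PLB. All E2 values lay below all PLB values, and the 4 WT PLB values spanned less than those of any other group. Igf1r was 2.68-fold lower with E2 in Arg260 (log2 -1.42, SE 0.17, limma adjusted p = 2.59e-06) and 2.65-fold lower in WT (log2 -1.40, SE 0.17, limma adjusted p = 3.05e-06).

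Irs2, an adaptor that couples insulin and IGF receptors to phosphoinositide 3-kinase, had the largest change of the 10 genes. Its probe (chr8:11004490-11004549, minus strand) measured -0.58, -0.80, -0.65 and -0.45 in Arg260 E2, against 3.51, 3.44, 3.33 and 2.49 in Arg260 PLB. WT E2 samples read -0.43, -0.78, -1.06 and -0.81, against 3.37, 3.13, 3.59 and 3.11 in WT PLB. The E2 and PLB groups lay far apart in both genotypes, and Arg260 PLB replicate 4 was the lowest PLB array. Irs2 was 14.0-fold lower with E2 in Arg260 (log2 -3.81, SE 0.20, limma adjusted p = 9.24e-10) and 16.8-fold lower in WT (log2 -4.07, SE 0.20, limma adjusted p = 5.27e-10).

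Irs1, the related adaptor, changed less. The probe that stood for it (chr1:82229692-82229751, minus strand) measured 3.68, 3.04, 2.64 and 3.06 in Arg260 E2, against 3.50, 3.43, 3.03 and 3.51 in Arg260 PLB. In WT E2 it measured 2.75, 2.79, 2.97 and 2.64, against 3.52, 3.26, 3.10 and 3.45 in WT PLB. The WT groups did not overlap, whereas the Arg260 groups did, with Arg260 E2 replicate 1 the highest of all 16 arrays. The log2 change was -0.26 in Arg260 (SE 0.18, limma adjusted p = 0.220) and -0.55 in WT (SE 0.18, limma adjusted p = 0.0168). Without Arg260 E2 replicate 1 the Arg260 change was -0.46 and passed the test (limma adjusted p = 0.0162). It also passed in Arg260 with quantile normalization (log2 -0.65, limma adjusted p = 0.00374), with normexp and quantile normalization (log2 -0.62, limma adjusted p = 0.00410) and in the series table of the authors (log2 -0.59, limma adjusted p = 0.00576), but not with normexp and the 75th percentile (log2 -0.24, limma adjusted p = 0.258). The WT call was lost within each slide alone (log2 -0.62 and -0.47, limma adjusted p = 0.0544 and 0.184). The second Irs1 probe gave -0.22 in Arg260 and -0.47 in WT, and neither change passed the test (limma adjusted p = 0.426 and 0.0928).

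**Figure D2:**
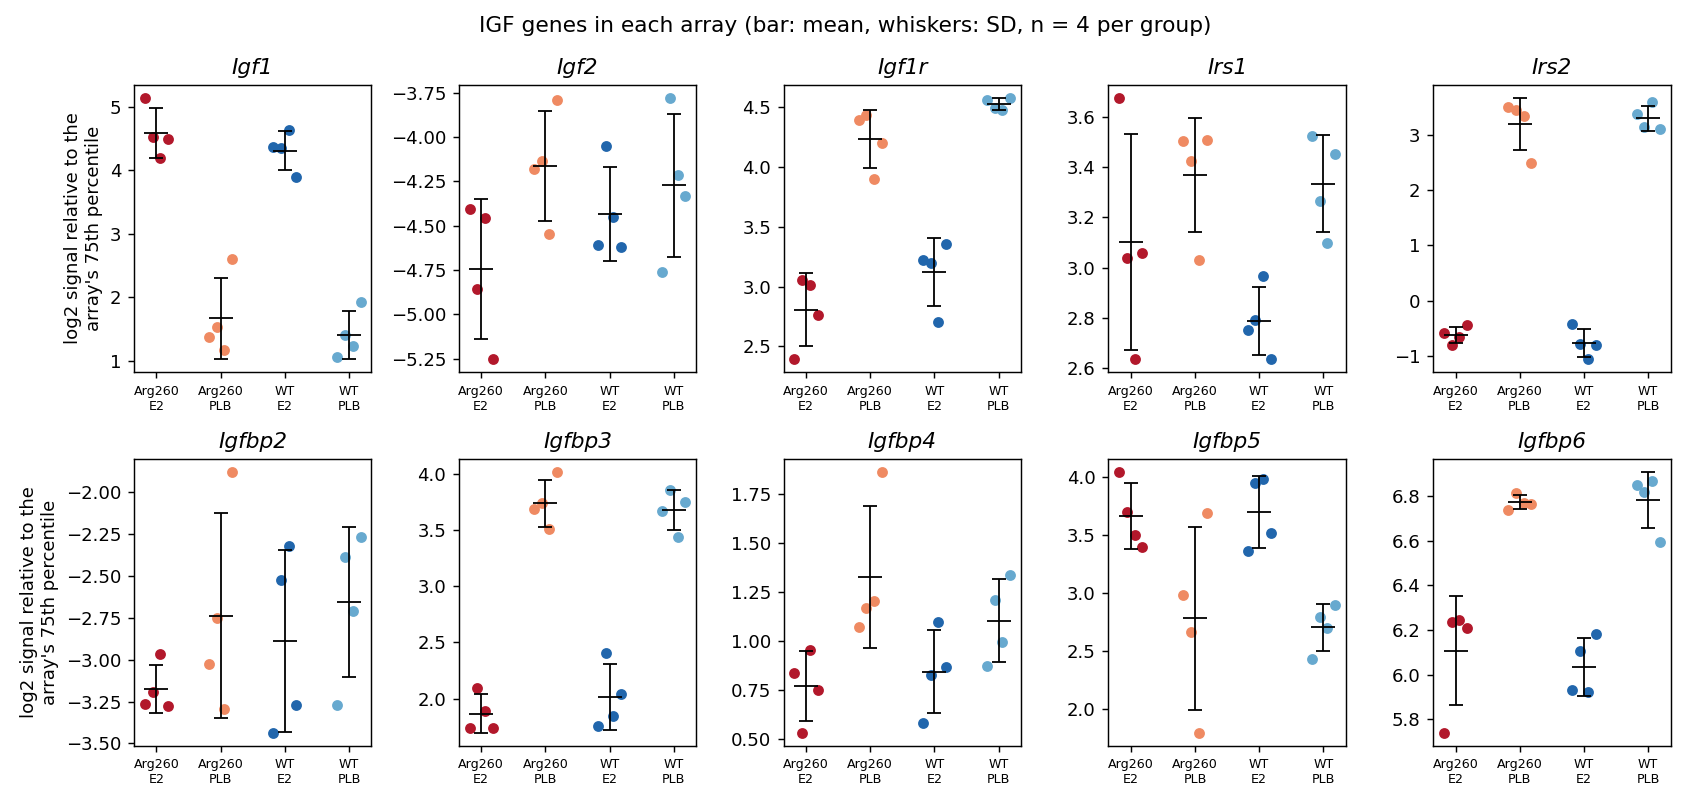
Log2 signal relative to the array's 75th percentile (y axis, scaled per gene) of the 10 IGF genes on all 16 arrays, for Arg260 E2, Arg260 PLB, WT E2 and WT PLB; points are single arrays, the bar is the mean and whiskers are the SD (n = 4 per group). On average Igf1 and Igfbp5 sit higher with E2, Igf1r, Irs2, Igfbp3 and Igfbp6 sit lower in both genotypes, and Igf2 and Igfbp2 overlap between treatments.

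Among the binding proteins, Igfbp3 and Igfbp6 fell in both genotypes and Igfbp5 rose. Igfbp4 fell in Arg260, and Igfbp2 did not pass the test in either genotype. The falls of Igfbp3 and Igfbp6 passed the test under all 31 alternatives in both genotypes, whereas the calls of Igfbp4 and Igfbp5 depended on the setting or the arrays used.

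Igfbp3 encodes the main IGF carrier of the circulation. The probe that stood for it (chr11:7106594-7106653, minus strand) measured 1.74, 2.10, 1.89 and 1.74 in Arg260 E2, against 3.69, 3.74, 3.51 and 4.02 in Arg260 PLB. The WT E2 arrays gave 1.76, 2.41, 1.85 and 2.04, against 3.67, 3.85, 3.44 and 3.75 in WT PLB. All E2 arrays lay below all PLB arrays by more than the range of any group. Igfbp3 was 3.66-fold lower with E2 in Arg260 (log2 -1.87, SE 0.15, limma adjusted p = 5.26e-08) and 3.17-fold lower in WT (log2 -1.66, SE 0.15, limma adjusted p = 1.83e-07). A second probe, annotated to the transcript ENSMUST00000135887, fell by 2.11 in Arg260 and by 2.09 in WT on the log2 scale (SE 0.22 each).

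Igfbp6 encodes a binding protein that prefers IGF2 over IGF1. Its probe (chr15:101979852-101979911, plus strand) measured 5.74, 6.24, 6.24 and 6.21 in Arg260 E2, against 6.74, 6.81, 6.77 and 6.77 in Arg260 PLB. Values in WT E2 were 5.93, 6.10, 5.92 and 6.18, against 6.85, 6.82, 6.87 and 6.59 in WT PLB. The E2 and PLB arrays did not overlap, and Arg260 E2 replicate 1 was the lowest of all. The log2 change was -0.66 in Arg260 (SE 0.11, limma adjusted p = 9.12e-05) and -0.75 in WT (SE 0.11, limma adjusted p = 3.02e-05).

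Igfbp4 encodes a binding protein that holds IGFs away from the receptor until the protease pappalysin, the product of Pappa, cuts it. Its probe (chr11:98913334-98913393, plus strand) measured 0.84, 0.53, 0.96 and 0.75 in Arg260 E2, against 1.07, 1.17, 1.20 and 1.86 in Arg260 PLB. WT E2 samples read 0.58, 0.83, 1.098 and 0.87, against 0.87, 1.21, 0.997 and 1.34 in WT PLB. The Arg260 groups did not overlap and the WT groups did. The log2 change was -0.55 in Arg260 (SE 0.17, limma adjusted p = 0.0105) and -0.26 in WT (SE 0.17, limma adjusted p = 0.200). The Arg260 call was lost within each slide alone, at -0.43 and -0.68 (limma adjusted p = 0.0813 and 0.0779).

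Igfbp2 encodes another soluble IGF carrier. The probe that stood for it (chr1:72898677-72898736, plus strand) measured -3.26, -3.19, -2.96 and -3.28 in Arg260 E2, against -3.02, -2.75, -3.29 and -1.88 in Arg260 PLB. In WT E2 it measured -3.44, -2.52, -2.32 and -3.27, against -3.27, -2.38, -2.71 and -2.26 in WT PLB. Treatments overlapped in both genotypes. The log2 change was -0.44 in Arg260 (95% interval -1.11 to 0.24, limma adjusted p = 0.240) and -0.23 in WT (95% interval -0.90 to 0.44, limma adjusted p = 0.543), so both intervals held changes of either sign. The second probe differed in sign between genotypes, at -0.60 in Arg260 and 0.08 in WT, and passed in neither (limma adjusted p = 0.127 and 0.845).

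Igfbp5 encodes a binding protein of smooth muscle and connective tissue. Its probe (chr1:72904829-72904888, minus strand) measured 4.05, 3.70, 3.50 and 3.40 in Arg260 E2, against 2.98, 2.66, 1.79 and 3.69 in Arg260 PLB. The WT E2 arrays gave 3.36, 3.95, 3.98 and 3.52, against 2.43, 2.79, 2.69 and 2.90 in WT PLB. The WT groups did not overlap, while the Arg260 PLB arrays spread widely and 1 of them, replicate 4, reached the E2 values. Igfbp5 was 1.84-fold higher with E2 in Arg260 (log2 0.88, SE 0.30, limma adjusted p = 0.0198) and 1.998-fold higher in WT (log2 0.998, SE 0.30, limma adjusted p = 0.00998). In Arg260 the change was 0.55 without Arg260 PLB replicate 3 (limma adjusted p = 0.0588) and 0.75 without Arg260 E2 replicate 1 (limma adjusted p = 0.0612). Within slide 2 it was 0.71 in Arg260 and 0.96 in WT, and neither passed (limma adjusted p = 0.369 and 0.231). With quantile normalization it was 0.51 in Arg260 and 0.67 in WT (limma adjusted p = 0.146 and 0.0615). In the series table of the authors it was 0.54 and 0.68 (limma adjusted p = 0.127 and 0.0567). With normexp and quantile normalization it was 0.55 and 0.67 (limma adjusted p = 0.111 and 0.055). The call was kept in both genotypes with normexp and the 75th percentile.

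Smooth muscle markers are given beside Igfbp5 because their level differed between arrays. The mean signal of 7 markers (Acta2, Myh11, Des, Cnn1, Tagln, Actg2 and Smtn) was lowest, at 4.998, on Arg260 PLB replicate 3 and highest, at 6.05, on Arg260 PLB replicate 4, the arrays with the lowest and the highest PLB values of Igfbp5. By group it ranged between 5.58 and 5.79 in Arg260 E2, between 4.998 and 6.05 in Arg260 PLB, between 5.52 and 6.04 in WT E2 and between 5.14 and 5.60 in WT PLB. With E2, 1 of the 7 markers rose and 1 fell in Arg260 (33.6% and 30.7% of all genes). In WT 3 rose and 1 fell (31.9% and 31.7% of all genes). On the E2 array with the lowest marker mean in its genotype, Igfbp5 was 3.70 in Arg260 (replicate 2, marker mean 5.58), against 2.98 on Arg260 PLB replicate 1 (marker mean 5.63). In WT it was 3.36 (replicate 1, marker mean 5.52), against 2.90 on WT PLB replicate 4 (marker mean 5.60). These are pairs of single arrays, and in Arg260 other pairs go the other way. There Igfbp5 was 3.69 on Arg260 PLB replicate 4 (marker mean 6.05), against 3.40 on Arg260 E2 replicate 4 (marker mean 5.62). In WT every E2 array lay above every PLB array for Igfbp5. The part of muscle RNA in the Igfbp5 change was not tested.

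**Figure D3:**
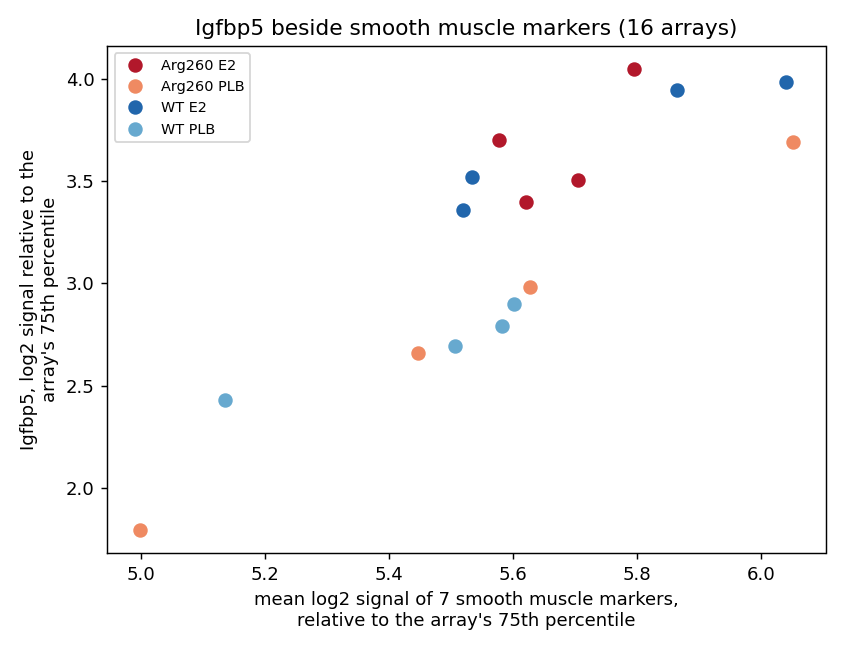
Igfbp5 (y axis) against the mean of 7 smooth muscle markers (x axis) on each of the 16 arrays, both as log2 signal relative to the array's 75th percentile; colours mark Arg260 E2, Arg260 PLB, WT E2 and WT PLB. Arg260 PLB spans Igfbp5 values between 1.79 and 3.69, and the Arg260 PLB array at 6.05 on the x axis lies at the height of the E2 arrays.

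Stromal markers, the other list that shares its tissue layer with Igf1 in the rodent uterus, fell in part. Of 8 stromal markers, 4 fell and 0 rose with E2 in each genotype; their mean ranged between 2.83 and 3.42 in Arg260 E2, between 3.73 and 4.50 in Arg260 PLB, between 2.68 and 3.65 in WT E2 and between 3.48 and 4.29 in WT PLB. In both genotypes the estimates of Igf1 and Igfbp5 lay opposite to the list mean. Those of all other IGF genes, called or not, lay in its direction. Adipocyte markers varied widely, with a mean between -2.07 and 1.12 in Arg260 E2, between 0.51 and 2.04 in Arg260 PLB, between -4.16 and -0.01 in WT E2 and between 1.01 and 2.74 in WT PLB. Of 7 adipocyte markers tested, 1 fell in Arg260 and 7 fell in WT (30.7% and 31.7% of all genes). The 7 log2 changes lay between -2.63 and -0.57 in Arg260 and between -4.90 and -0.93 in WT, and 0 of 7 passed the test of the difference between genotypes (limma adjusted p = 0.9998 each). Macrophage markers averaged 2.81 on Arg260 PLB replicate 3, against 0.79 to 1.46 on the other arrays. With E2, 1 of 6 macrophage markers rose and 2 fell in Arg260, and 1 rose and 1 fell in WT. Of 8 epithelial markers, 3 rose and 1 fell in Arg260, and 1 rose and 1 fell in WT. Of 6 endothelial markers, 2 rose and 1 fell in Arg260, and 1 rose and 3 fell in WT. Beside all these lists, 33.6% of all genes rose and 30.7% fell in Arg260, and 31.9% rose and 31.7% fell in WT. The part of these cell types in the IGF gene results was not tested.

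Counted together, 2 IGF genes were higher and 6 lower with E2 in Arg260, and 2 were higher and 5 lower in WT. E2 changed 64.3% of all 25860 genes in Arg260 (33.6% higher, 30.7% lower) and 63.5% in WT (31.9% higher, 31.7% lower), so the shares of IGF genes called were near those of all genes. The median absolute log2 change of the 10 genes was 0.77 in Arg260, against 0.60 over all genes, and 0.87 in WT, against 0.58 over all genes. The 10 genes were chosen with earlier results of these data known, so these medians are descriptive and no test. The E2 and PLB arrays did not overlap for 6 of the 10 genes in Arg260 (58.7% of all genes) and for 7 in WT (59.1% of all genes).

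**Figure D4:**
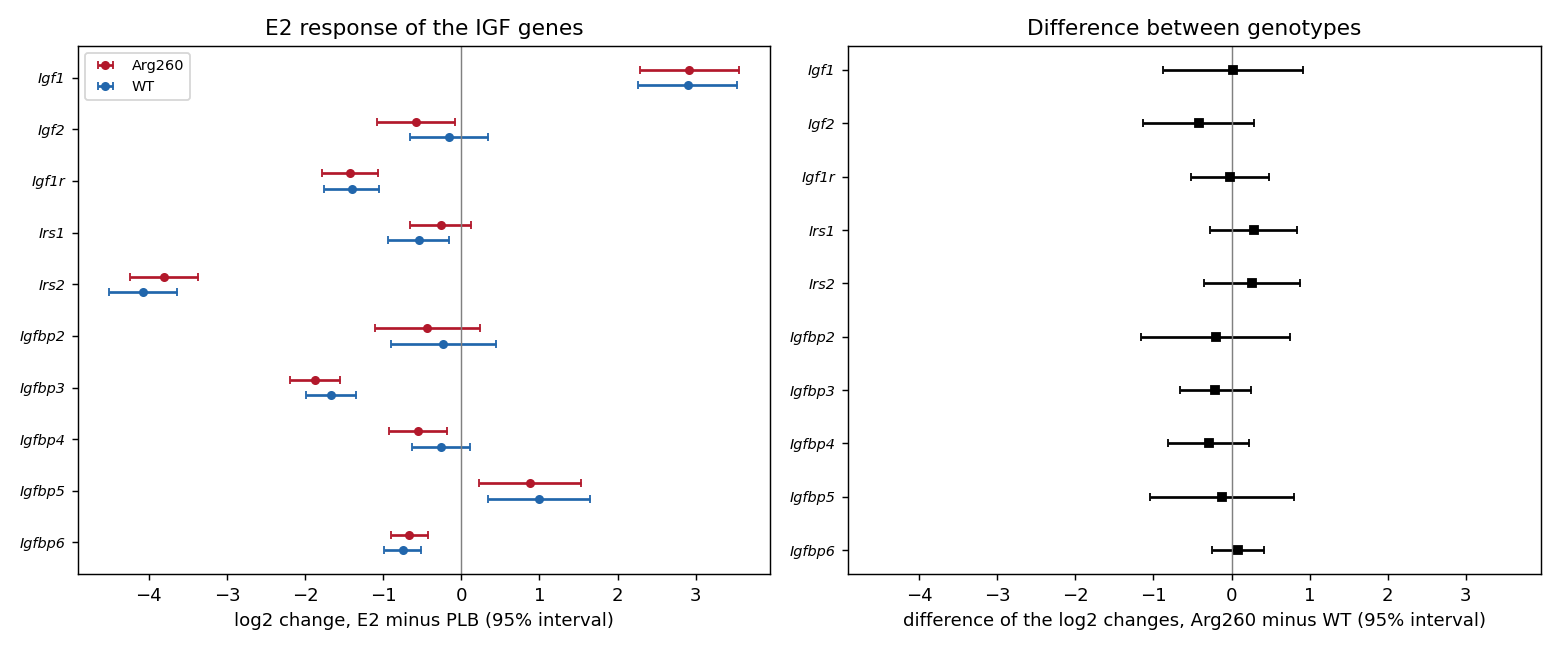
Left, log2 change with E2 (E2 minus PLB, x axis) of the 10 IGF genes in Arg260 (red, upper point) and WT (blue, lower point); right, the difference of these changes, Arg260 minus WT. Whiskers are 95% intervals of the fit, with 4 arrays per group; changes lie between -4.07 and 2.92, and each interval of the difference contains 0.

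The next question was whether the response to E2 depended on the receptor form. No IGF gene passed the test of the difference between the Arg260 and WT responses, and 0% of all genes did (limma adjusted p = 0.9998 for each of the 10). Without adjustment, 0 of the 10 IGF genes and 961 of all genes had a p under 0.05. The difference for Igf1 was 0.02 on the log2 scale with a 95% interval between -0.88 and 0.92, an interval that holds differences of nearly 2-fold in either direction. Igfbp6 had the narrowest interval, between -0.25 and 0.42 around 0.08. For Igf1r the difference was -0.02 (95% interval -0.52 to 0.48), for Irs2 0.26 (-0.36 to 0.87) and for Igfbp3 -0.21 (-0.66 to 0.25). The largest estimates were those of Igf2 at -0.42 (-1.13 to 0.29), Igfbp4 at -0.29 (-0.81 to 0.22) and Irs1 at 0.28 (-0.27 to 0.84). These are the 3 genes called in 1 genotype and not in the other, and none of these intervals shows the genotypes to differ.

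Arg260 uteri were also compared directly with WT uteri under the same treatment. After E2 no IGF gene passed the test (0% of all genes; limma adjusted p of 0.714 to 0.985), and log2 differences lay between -0.31 for Igf1r and 0.31 for Irs1. With vehicle no IGF gene passed either (0% of all genes; limma adjusted p = 0.9996 for each), and differences lay between -0.29 for Igf1r and 0.26 for Igf1. At an unadjusted p under 0.05 these comparisons held 1900 and 638 of all genes, and 0 of the 10 IGF genes in each. In vehicle-treated uteri the 4 Arg260 values of Igf1r, between 3.90 and 4.43, all lay below the 4 WT values, between 4.47 and 4.57. Igf1r was the only 1 of the 10 genes whose genotypes did not overlap without hormone, which held for 1.66% of all genes. After E2 none of the 10 was so separated (3.95% of all genes).

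Other genes of the IGF axis were read from a list of 19, of which 16 passed the filter and Igfbp1, Igf2bp1 and Igf2bp3 did not. Of these 16, 7 rose and 6 fell with E2 in Arg260 (33.6% and 30.7% of all genes), and 6 rose and 5 fell in WT (31.9% and 31.7% of all genes). The median log2 change of the 16 was 0.26 in Arg260 (0.02 over all genes) and -0.06 in WT (-0.02 over all genes). The genes named are the called ones with the largest rises and falls in WT.

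Igf2r and Insr fell. Igf2r, the receptor that carries IGF2 to lysosomes, measured 1.77, 1.53, 1.50 and 1.60 in Arg260 E2, against 3.47, 3.41, 2.95 and 3.37 in Arg260 PLB. It measured 1.60, 1.61, 1.72 and 1.52 in WT E2, against 3.51, 3.52, 3.55 and 3.70 in WT PLB. The treatments did not overlap. Its log2 change was -1.70 in Arg260 and -1.96 in WT (SE 0.11 each, limma adjusted p = 4.51e-09 and 1.13e-09). Insr, the insulin receptor gene, changed by -0.93 in Arg260 and by -1.23 in WT (SE 0.16 each, limma adjusted p = 0.000100 and 6.68e-06), and its Arg260 call was lost within slide 2 (limma adjusted p = 0.0557).

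Of the pappalysins and their inhibitors on the list, Stc2 rose, and Pappa and Stc1 fell. Pappa, which encodes the protease that cuts IGFBP4 and IGFBP5, changed by -1.21 in Arg260 and by -1.10 in WT (SE 0.16 each, limma adjusted p = 1.30e-05 and 3.42e-05). Pappa2, its relative, named after its values were seen, changed by -0.72 in Arg260 and had a log2 change of -0.57 in WT that did not pass the test (SE 0.30 each, limma adjusted p = 0.0495 and 0.113). Stc2 encodes stanniocalcin 2, an inhibitor of pappalysins, and rose by 1.86 in Arg260 and by 1.88 in WT (SE 0.18 each, limma adjusted p = 5.05e-07 and 4.63e-07). Stc1, its relative with the same inhibitory activity, fell by 1.22 in Arg260 and by 0.94 in WT on the log2 scale (SE 0.21 each, limma adjusted p = 0.000161 and 0.00140), and the WT call was lost within slide 1 (log2 -0.61, limma adjusted p = 0.124). With normexp and quantile normalization the Arg260 change of Stc1 was -0.63.

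Socs2, whose product restrains growth hormone signalling, rose by 1.81 in Arg260 and by 2.26 in WT (SE 0.18 each, limma adjusted p = 6.29e-07 and 6.31e-08). Igfbpl1, a gene related to the binding proteins, was dim: 4 of 4 arrays were well above background in Arg260 E2, against 2 of 4 in Arg260 PLB, and 4 of 4 in WT E2, against 0 of 4 in WT PLB. Its signal in the main processing was therefore at least 4.50-fold higher with E2 in WT (limma adjusted p = 1.19e-06), a bound of 2.17 on the log2 scale. In Arg260 its log2 change was 3.62 (SE 0.43, limma adjusted p = 3.42e-06), and was 1.34 with the normexp background correction. With that correction the WT log2 change was 0.95 (limma adjusted p = 0.000316), and in the series table of the authors it was 1.74. Both are under the bound, which holds for the main processing only. Insrr, a receptor related to the insulin receptor, had a WT change of 3.14 (SE 1.25, limma adjusted p = 0.0407) that rested on 1 dim spot, -8.13 on WT PLB replicate 2. The WT call was lost in 9 of 31 alternatives. Without that array the WT change was 1.33 (limma adjusted p = 0.0212), and the Arg260 change of 1.17 then passed the test (limma adjusted p = 0.0263, against 0.434 with it).

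Downstream of the receptor, all 37 genes of a signal relay list were tested. With E2, 19 rose and 13 fell in Arg260 (33.6% and 30.7% of all genes), and 19 rose and 12 fell in WT (31.9% and 31.7% of all genes). The median log2 change was 0.29 in Arg260 (0.02 over all genes) and 0.29 in WT (-0.02 over all genes). This list and that of the IGF axis were chosen with earlier results of these data known. Their counts and medians beside those of all genes are therefore descriptive and no test.

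Akt1, the kinase gene at the centre of the relay, measured 5.52, 5.50, 5.54 and 5.50 in Arg260 E2, against 3.70, 3.73, 3.69 and 4.12 in Arg260 PLB. It measured 5.39, 5.56, 5.44 and 5.41 in WT E2, against 3.74, 3.84, 3.76 and 3.92 in WT PLB. The treatments were well separated in both genotypes. Akt1 rose by 1.70 in Arg260 and by 1.64 in WT (SE 0.09 each, limma adjusted p = 8.15e-10 and 1.19e-09). Eif4ebp1, which encodes a brake on cap-dependent translation, rose by 2.55 in Arg260 and by 2.47 in WT (SE 0.15 each, limma adjusted p = 2.24e-09 and 3.19e-09). Ptpn1, a phosphatase gene whose product acts on the insulin receptor, rose by 1.65 in Arg260 and by 1.93 in WT (SE 0.13 each, limma adjusted p = 3.48e-08 and 7.05e-09).

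Of the 3 regulatory subunit genes of phosphoinositide 3-kinase on the list, Pik3r3 rose, and Pik3r1 and Pik3r2 fell. Pik3r3 rose by 1.25 in Arg260 and by 1.23 in WT (SE 0.10 each, limma adjusted p = 7.99e-08 and 9.68e-08). Pik3r2 fell by 1.42 in Arg260 and by 1.50 in WT (SE 0.11 each, limma adjusted p = 4.56e-08 and 2.71e-08). Pik3r1, named after its values were seen, fell by 0.85 in Arg260 and by 0.93 in WT (SE 0.12 each, limma adjusted p = 2.69e-05 and 1.12e-05). Of the other falling genes, Grb14, which encodes an adaptor that inhibits the insulin receptor, fell by 2.30 in Arg260 and by 2.42 in WT (SE 0.21 each, limma adjusted p = 2.59e-07 and 1.57e-07).

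Mapk3, which encodes the kinase ERK1, fell by 1.17 in Arg260 and by 1.09 in WT (SE 0.11 each, limma adjusted p = 1.91e-07 and 4.22e-07). Foxo4, a transcription factor gene under AKT control, was near background, with 0 of 4 arrays well above it in Arg260 E2, against 3 of 4 in Arg260 PLB, and 1 of 4 in WT E2, against 3 of 4 in WT PLB. Its signal in the main processing was at least 1.55-fold lower with E2 in Arg260 (limma adjusted p = 4.24e-05). The normexp correction gave a log2 change of -0.49 there (limma adjusted p = 0.00666) and, with quantile normalization added, -0.43 (limma adjusted p = 0.000238). Both are smaller than the bound, which holds for the main processing only. Its WT change of -1.51 (SE 0.39, limma adjusted p = 0.00356) was -0.30 with the normexp correction and then did not pass (limma adjusted p = 0.0808), nor within slide 1 (log2 -1.08, limma adjusted p = 0.210).

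**Figure D5:**
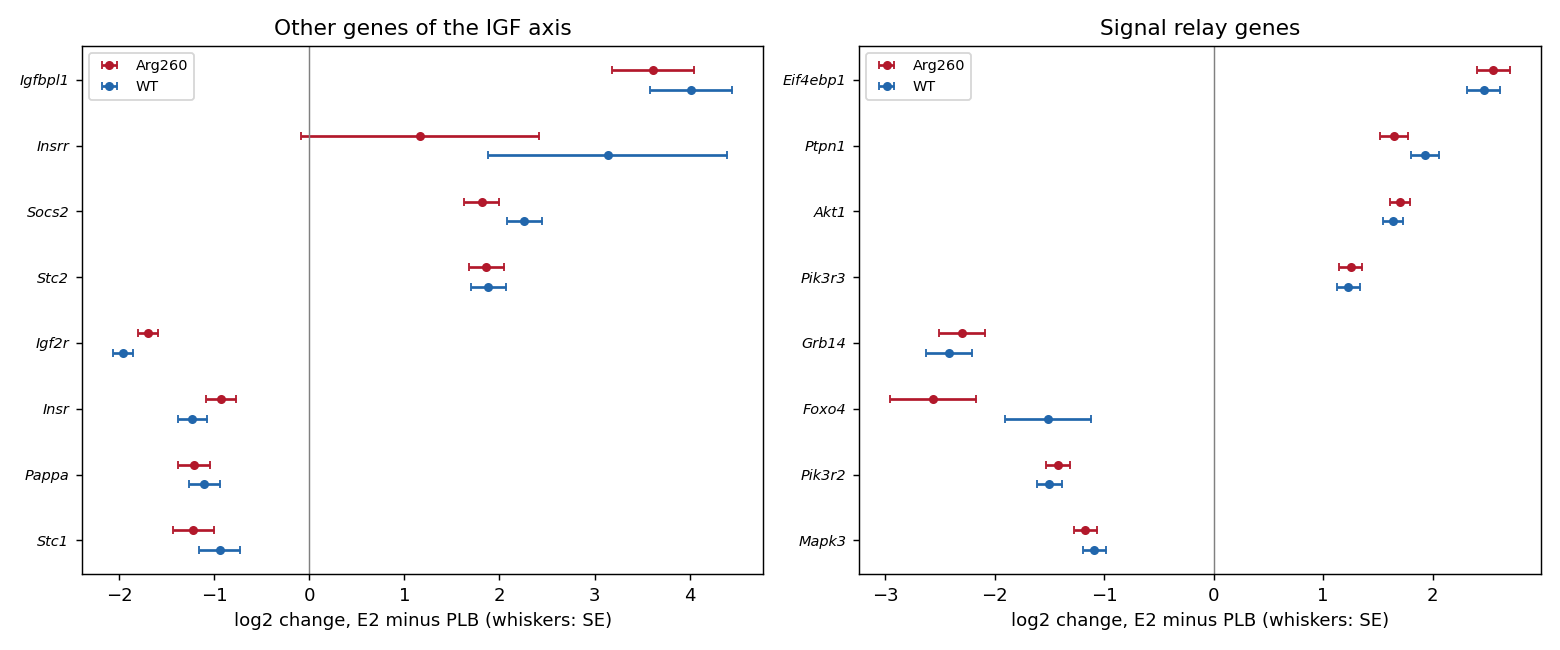
Log2 change with E2 (E2 minus PLB, x axis) of the named genes of the IGF axis (left) and of the signal relay (right), in Arg260 (red, upper point) and WT (blue, lower point); whiskers are standard errors, with 4 arrays per group. Values lie between -2.56 and 4.02, and Insrr has the widest whiskers, at 1.25.

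None of the genes of either list passed the test of the difference between genotypes (0 of 16 and 0 of 37; 0% of all genes).

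The genes whose pattern over the 16 arrays was most like that of Igf1 were Timp1, which encodes an inhibitor of metalloproteinases, Cycs, which encodes cytochrome c, and Trmt61a, which encodes a subunit of a tRNA methyltransferase. Likeness was the root mean square difference of the values after each gene's mean was removed, at 0.26, 0.27 and 0.29 log2 units. The log2 change of Timp1 was 3.20 in Arg260 and 2.75 in WT, beside 2.92 and 2.90 for Igf1. For Igfbp3, the binding protein gene with the largest change, the nearest genes were Fam117a, Tmem106b and Ttc8, at 0.13, 0.14 and 0.16 log2 units. All 16 arrays entered these measures, and the arrays share the contrast between E2 and PLB.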

How the data were processed

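RNA (200 ng per sample) was labelled with Cy3 and hybridised to 16 one-colour arrays, per the labels' protocols. The deposited spot intensity was extracted by the authors with Agilent Feature Extraction 10.10.1.1 and, per the file headers, background-subtracted within each array and not normalised between arrays. The deposited log2 series table shares 1 distribution over its 16 columns, and its background correction is not given in the sources used here; it served as an alternative. Each value is the log2 processed signal less the array's 75th percentile (922 to 1296 intensity units). Outlier spots were left out and spots of a probe averaged. Probes well above background on at least 4 arrays were kept, and the brightest probe stood for each of 25860 genes. Group means were fitted with limma 3.58.1 in R 4.3.3 on all 16 arrays (12 residual degrees of freedom), two-sided, with Benjamini-Hochberg adjustment over all genes tested and calls at an adjusted p under 0.05. SE comes from this fit. A fold for a gene below background on every array of a group is a bound, set against the higher of the dim probe's signal and the lowest signal well above background. Arrays lay on 2 slides of 8, each with 2 arrays of every group. Between 36505 and 41890 spots per array were well above background, with 0 saturated. Precision is limited by the number of arrays. The fit was tested on simulated data. The members and gene lists, and the rule for naming the 4 largest rises and 4 largest falls of each list in WT, were chosen with earlier results of these data known. Fitting each probe on its own, and leaving out both arrays that stood apart, were added after seeing the data.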

Additional observations from a re-analysis of the deposited data

Results flagged for a closer look

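Of 40 sets of 4 arrays (10 genes in 4 groups), 3 held an array far from its group, and chance puts about 5% of sets there. Arg260 PLB replicate 4 stood apart for Irs2, at 2.49 with the next array at 3.33, and for Igfbp4, at 1.86 with the next array at 1.20. The same array held the highest PLB values of Igf1, Igfbp2, Igfbp3 and Igfbp5. Its first principal component score was -76.5, against -98.7 to -90.1 on the other 7 PLB arrays. Igfbp6 stood apart on Arg260 E2 replicate 1, at 5.74 with the next array at 6.21, and that array also held the highest Igf1 and Irs1 values of its group.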

How the results depend on the processing

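The falls of Igf1r, Irs2, Igfbp3 and Igfbp6 and the rise of Igf1 with E2 kept direction and call under all 31 alternatives in both genotypes. No called value changed sign in any alternative; 67 of 1540 recomputed gene values changed sign where neither value was called. Within slide 2 the count of IGF genes called was 5 in Arg260, against 8, and 5 in WT, against 7. Of all genes, 11233 were called there in Arg260, against 16628, and 11390 in WT, against 16434. The count of all genes that differed between Arg260 and WT after E2, 0 in the report, was 1 with quantile normalization, 2 with the normexp background correction, 3 with normexp and quantile normalization, 2 with the series table of the authors, 1 with the stricter filter of 12 arrays and 2 with a trended robust prior; none was an IGF gene and the cause was not tested. Leaving out each array in turn gave 7 to 8 IGF genes in Arg260 and 7 to 7 in WT, and 15850 to 16725 and 15617 to 16686 of all genes. In the other comparisons it gave 0 to 0 genes, except Arg260 against WT after E2, with 0 to 2 of all genes (2 without Arg260 E2 replicate 3). Same-numbered samples did not deviate together in all pairs (correlations of -0.05 to 0.26, and 5 of 16 arrays closest to an array of their own number). The main fit did not pair samples by number. These correlations cannot exclude a pairing, because each rests on 1 pair of arrays and some lay above 0. With the replicate block 7 IGF genes were called in Arg260, where Igf2 lost its call (adjusted p = 0.0553), and 7 in WT; of all genes 16672 and 16393 were called. The number of arrays limits detection: the median 95% interval extended 0.42 log2 units to either side for a difference between genotypes and 0.30 for the WT response.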

Other observations

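The following neighbours were chosen after their values were seen, by the same root mean square difference over 16 arrays. Igfbp5 lay nearest to Hacd1 and to the smooth muscle gene Cnn1 (0.17 log2 units each) and to Lmod1 (0.20), which encodes a muscle actin nucleator. The log2 change of Cnn1 was 0.82 in Arg260 and 0.95 in WT. Cnn1 does not stand for the 7 smooth muscle markers, which did not move together. With E2, 1 of the 7 rose and 1 fell in Arg260 (33.6% and 30.7% of all genes). In WT 3 rose and 1 fell (31.9% and 31.7% of all genes). The falling marker Smtn changed by -1.06 in Arg260 and by -0.84 in WT. Igf2 lay nearest to Myocd, the smooth muscle transcription coactivator gene, and to the smooth muscle myosin gene Myh11 (0.21 and 0.23). The dim Igf2 itself varied by only 0.37 over the 16 arrays (root mean square about its mean), against 1.51 for Igf1, so this likeness is loose. Irs2 lay nearest to Rhebl1, a gene related to Rheb, at 0.22, and the log2 change of Rhebl1 was -4.12 in Arg260 and -4.31 in WT. Irs2 also lay near Rspo3, a Wnt agonist gene, at 0.29. Igfbp6 lay nearest to Cst3, which encodes the protease inhibitor cystatin C, at 0.07. Htra1, which encodes a protease that can cut IGF binding proteins, rose by 1.93 in Arg260 and by 1.75 in WT on the log2 scale (SE 0.15 each, limma adjusted p = 3.16e-08 and 8.83e-08). It too was named after its values were seen.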
